A study of Mus musculus with 6 samples.

Results

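Basal keratinocytes of castrated male mice were compared with those of intact females, gene by gene, over the autosomes. The comparison covered 14646 autosomal genes that had at least 10 reads in 2 of the 4 libraries, out of 45108 autosomal genes and 49671 genes in all. It addresses what still differs between the sexes when the hormones of the testis are absent. All mice were of the CD1 stock. Cells came from ear epidermis and were sorted alive by integrin alpha 6 on their surface and by the lack of CD34, which leaves out the hair follicle bulge, and each library held 100000 cells from 2 mice of 1 litter. There were 2 libraries of castrated males, 2 of intact females and 2 of intact males. Intact males enter this comparison only through the shared estimate of the spread, and their values are given for reference. Ages, the age at castration and the time since surgery do not appear among the labels used here. Castration, the sex chromosomes, the ovaries, the surgery and the litters of the pools changed together between the groups and cannot be told apart.

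Basal keratinocytes are the proliferating layer of the epidermis. They anchor to the basement membrane through integrins and laminins, and their daughters move outward, switch keratins and build the cornified envelope from proteins encoded largely in a single gene cluster, the epidermal differentiation complex. Keratinocytes under stress or in a wound switch on alarm keratins, calprotectin and antimicrobial proteins. The testis is the main source of androgens in males, whereas the ovary is the main source of estrogen and progesterone in females.

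Library depth ran from 8412487 to 9648154 reads, and 1 read was worth 0.1022 to 0.1282 CPM (reads relative to library size, after scaling). The labels were checked on the sex chromosomes, outside the genes compared: Eif2s3y, Ddx3y, Uty and Kdm5d had 343 to 1799 reads in the castrated male libraries and 0 to 2 in the female ones. The sorted cells carried the markers of their label. Krt14, a keratin of the basal layer, stood at 13585 and 17440 CPM in females against 12468 and 14094 in castrated males (values are given in the order of replicates 1 and 2 throughout). Cd34, the gene of the marker sorted against, stood at 2.31 to 2.73 CPM in these 4 libraries. The basal genes Krt5, Krt14, Krt15, Itga6 and Trp63 did not pass the test, with log2 differences between -0.31 (Trp63) and 0.70 (Krt15). The 2 female libraries stood apart from the others on the first principal component, and from each other (25.75 and 61.89, against -30.73 to -15.77 in the other 4).

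Of the 14646 genes, 250 differed between castrated males and females (1.71%, limma, adjusted p below 0.05), 82 being higher (0.56%) and 168 lower (1.15%) in castrated males. By size, 54 of the higher and 141 of the lower genes differed by at least 2-fold, and 17 and 80 by at least 4-fold. The median log2 difference over all 14646 genes was 0.0115. In all 250 the libraries of the groups did not overlap, which held for 29.5% of all genes with castrated males higher and for 28.4% with castrated males lower. A read minimum in 2 libraries lets in genes that are high in 1 group only: 7 of the 82 and 35 of the 168 entered in this way. At the edge of the minimum, 639 genes had 10 to 12 reads in their second highest library, and 966 autosomal genes with 7 to 9 stayed outside. In bulk RNA, fewer cells of a kind and less RNA per cell cannot be told apart.

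The calls depended on single libraries. Female replicate 2 was above female replicate 1 in 166 of the 168 lower genes, against 53.7% of all genes, and below it in 66 of the 82 higher genes. Median log2 differences of the lower genes were -1.62 against female replicate 1 and -2.28 against female replicate 2. The refit that left out female replicate 2 called 34 genes, of which the 250 held 32, and without female replicate 1, 1275, of which 216 were among the 250. Leaving out castrated male replicate 1 or 2 left 16 and 24 calls. Since the groups did not overlap in any of the 250, the directions were all but fixed in advance. Every one that could still be tested kept its direction in these 4 refits. A total of 11 genes were called in all 4: Baiap2l1, Stag3, Gm15708 and Lce1m, which were higher in castrated males, and S100a8, Rps3a3, BC100530, Gm15845, Car2, Akr1c18 and Serpinb3a, which were lower. The other 239 lost the call, or could not be tested, in at least 1 refit.

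**Figure D1:**
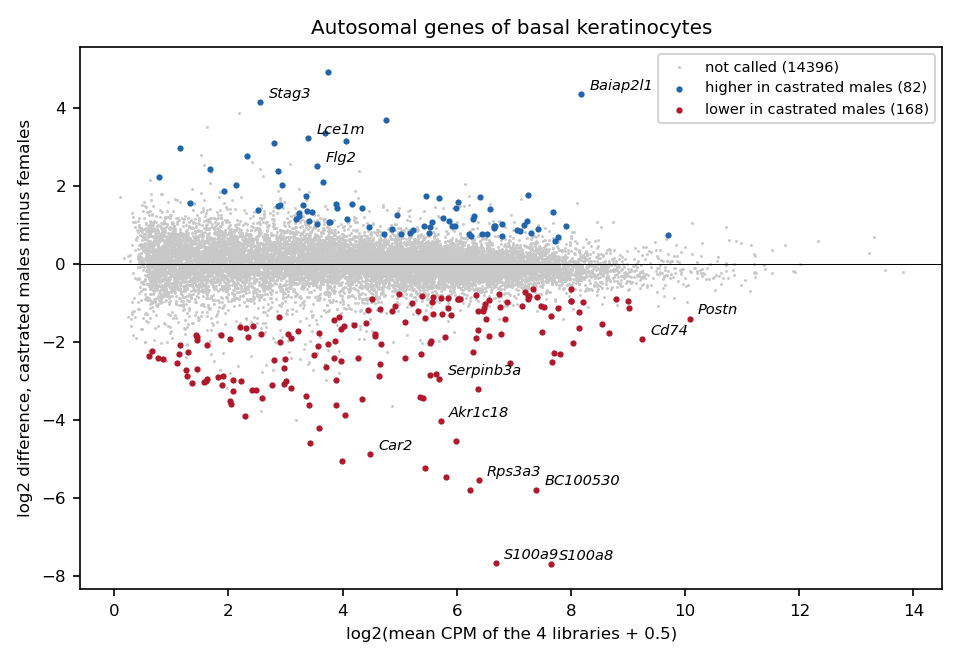
Log2 difference (castrated males minus females) of each autosomal gene against its mean level in the 4 libraries, as log2(CPM + 0.5). Points mark the 82 genes called higher and the 168 called lower in castrated males among 14646 genes, and the lower genes reach differences of -7.71 (S100a8) while the higher ones with an established symbol reach 4.35 (Baiap2l1).

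Baiap2l1 and Stag3, on chromosome 5, had the largest excess in castrated males among genes with an established symbol. Baiap2l1, which encodes a protein that bends membranes and bundles actin, stood at 32.6 and 20.5 CPM in intact females and at 430 and 670 CPM in castrated males. Intact males stood at 645 and 378 CPM, so the 4 male libraries lay in 1 range and both female libraries far below it. The log2 difference was 4.35 ± 0.30 (limma, adjusted p = 0.000315). Stag3, a cohesin subunit best known from meiosis, had 2 reads in the 2 female libraries together and 188 in the castrated ones (8.08 and 13.3 CPM against 0.102 and 0.128). The ratio of the reads was 94.06, with a 95% interval of 25.68 to 782.3 for counting error only.

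Neighbours of both genes were also called. Gpc2, which encodes a heparan sulfate proteoglycan of the cell surface, begins within 1 kb of Stag3 and stood at 2.25 and 1.41 CPM in females and 9.55 and 13.9 in castrated males (log2 difference 2.39 ± 0.29, adjusted p = 0.00703). Bri3 rose from 2.45 and 2.56 to 10.8 and 12.8 CPM (adjusted p = 0.00937). The annotated Bri3 gene covers all 93587 bases of Baiap2l1 on the opposite strand, and whether the counting used strand is not stated in the labels, so reads of Bri3, Baiap2l1 and the overlapping Gm15708 cannot be told apart. Of 14 genes within 500 kb of Baiap2l1, these 3 were called (Baiap2l1 and Gm15708 also without female replicate 2), and of 30 within 500 kb of Stag3, 3 were called (Stag3, Gpc2 and Gm43720). Over all genes, 1.71% were called. Gm15708 and Gm43720 were chosen after their values were seen. Of the 4 libraries compared, Stag3 reached the read minimum in the castrated ones only, so that it had to differ, and its calls are given as a description. Gpc2 was not called without female replicate 2.

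Other genes among the 15 with the largest excess in castrated males included a matrix proteoglycan, a lipid transporter, a carbohydrate kinase and a Wnt ligand. Ogn, a small proteoglycan of the matrix, stood at 4.91 and 0.385 CPM in females, 24.2 and 20.2 in castrated males and 67.9 and 58.5 in intact males (log2 difference 3.37 ± 0.65, adjusted p = 0.0444). Castrated males lay between females and intact males, and the female libraries differed from each other more than the castrated ones did. Abca4, a lipid flippase of the ABC family, stood at 6.03 and 1.15 CPM against 28.9 and 28.8. Fggy, a carbohydrate kinase, stood at 0.818 and 0.897 CPM against 7.39 and 16.6, above the intact males (1.92 and 2.11), and of the 4 libraries compared reached the read minimum in the castrated ones only. Wnt10b, a Wnt ligand, rose from 5.62 and 3.08 to 15 and 15.6 CPM (1.76 ± 0.27, adjusted p = 0.022). Golga7b, Dmpk, a serine/threonine kinase, and Mesp2 rose by 2.10, 1.76 and 1.75 on the log2 scale. Of the 15 higher genes named by size, 14 stayed called without female replicate 1, 7 without female replicate 2, and 4 and 3 without castrated male replicate 1 and 2.

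**Figure D2:**
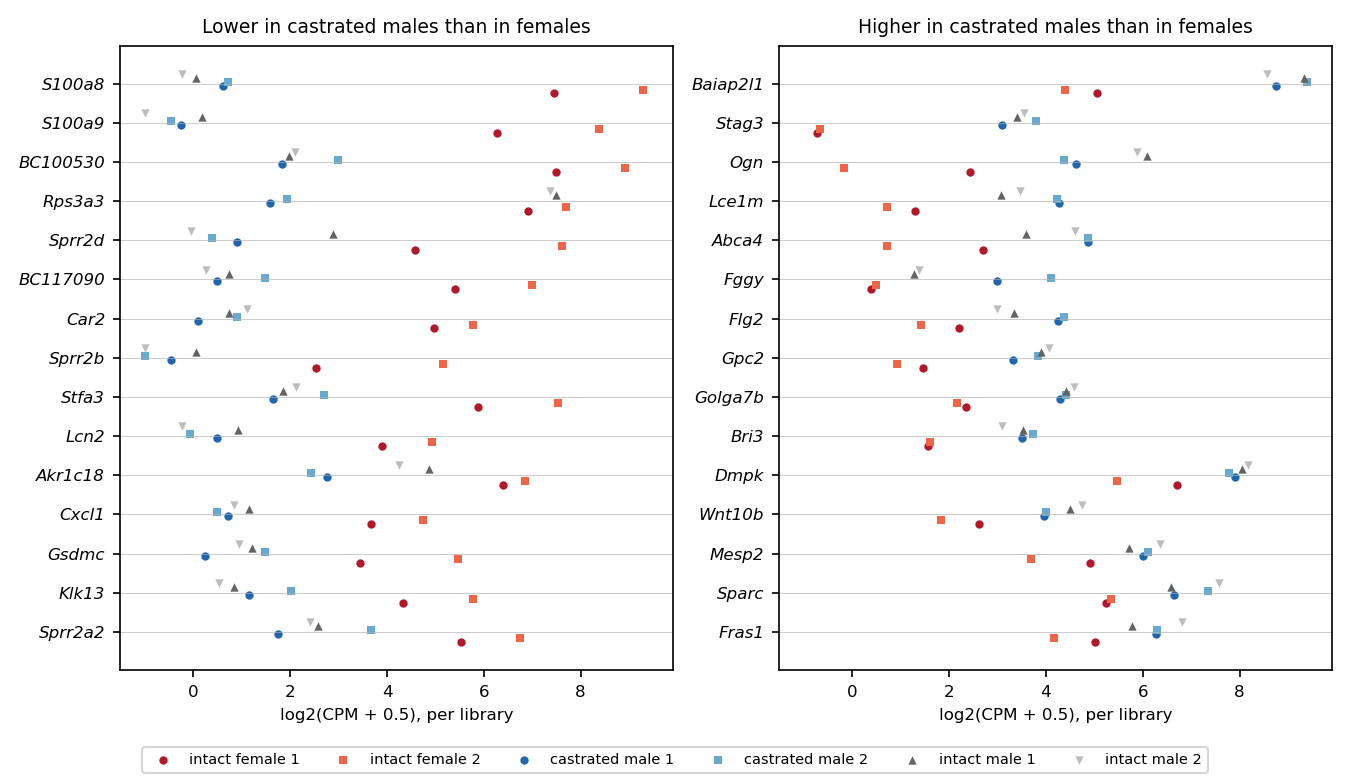
Level of the 15 genes with the largest deficit (left) and the 15 with the largest excess (right) in castrated males against females, as log2(CPM + 0.5), with 1 symbol per library. The 2 female libraries lie on 1 side of the 2 castrated male libraries in each of these 30 genes, as their selection required. Rps3a3 is the gene on the left in which intact males (179 and 165 CPM) lie with the females.

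Calprotectin genes had the largest deficit in castrated males. S100a8 and S100a9, whose products form this calcium-binding, metal-sequestering complex, are neighbours on chromosome 3. S100a8 stood at 174 and 622 CPM in the female libraries and at 1.02 and 1.14 CPM in castrated males (log2 difference -7.71 ± 0.49, adjusted p = 0.000178). S100a9 had 3332 reads in females and 5 in castrated males, a ratio of 666.0 (95% interval 285.1 to 2053.0, counting error only). Both female libraries were far above all male libraries, and female replicate 2 was above female replicate 1. Neutrophils also express these genes. Of the other 12 markers of macrophages and neutrophils listed, 4 had reads enough to be tested. These 4 summed to 9.92 and 20.9 CPM in females and to 8.42 and 9.79 in castrated males. Retnlg had no read in any library, and the part of such cells in the result was not tested.

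Genes of wounded and hyperproliferative epidermis, a list that holds S100a8 and S100a9 themselves, were lower in castrated males. Of its 19 measured genes 11 were called, all lower (57.9%, against 1.71% of all genes). The median log2 difference was -2.49 (-1.44 without female replicate 2). Of the 11, S100a9, Lcn2 and Il1f6 reached the read minimum, among the 4 libraries compared, in females only, so that they had to differ. The member with a positive difference was Il33, an alarmin (167 and 114 CPM in females, 261 and 237 in castrated males, adjusted p = 0.0517). Lcn2, an iron-scavenging lipocalin, stood at 14.3 and 30.1 CPM in females and 0.910 and 0.455 in castrated males. Serpinb3a, a serine and cysteine protease inhibitor, stood at 87.6 and 95.1 CPM against 10.5 and 12.2 (log2 difference -2.96 ± 0.24, adjusted p = 0.000784), and the female libraries were close to each other. Tnc, the matrix protein tenascin C, fell from 249 and 449 to 51.4 and 66.7 CPM (adjusted p = 0.0317). Il1f6, a cytokine of the interleukin 1 family, stood at 4.81 and 10.9 against 0.227 and 0.797 CPM. The alarm keratins were uneven. Krt6a and Krt6b, chosen after their values were seen, fell by 2.28 and 1.87 on the log2 scale, while Krt17 (724 and 1310 CPM in females, 441 and 477 in castrated males, adjusted p = 0.0814) and Krt16 (382 and 571 against 320 and 373, adjusted p = 0.221) did not pass. Of the 11 genes, 9 could be tested without either female library, of which 4 were called without replicate 2, and 3 and 4 of the 11 were called without castrated male replicate 1 and 2.

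The epidermal differentiation complex of chromosome 3 held members that moved in opposite directions. From S100a1 to S100a11 it had 55 of the genes compared, 2 called higher and 8 called lower in castrated males, against 0.56% and 1.15% of all genes. The median was -0.212, and moved between -0.347 and 0.00225 over the refits without a female or castrated male library. All 8 measured Sprr2 genes, which encode small proline-rich precursors of the cornified envelope, had negative differences, from -3.08 to -5.46, and 5 of them passed the test. Sprr2b, Sprr2e and Sprr2i reached the read minimum, among the 4 libraries compared, in females only, so that they had to be lower. Of 16 late cornified envelope (Lce) genes 14 had positive differences, with a median of 0.509, and Lce1m alone passed. The sequences before the transcription start of 4 genes of this complex are shown because 2 of them are lower and 2 higher in castrated males within 1 cluster. They are the 250 bases up to the start, read 5′ to 3′ in the direction of transcription, from RefSeq on GRCm38.p6 at chr3:92338890-92339139 (Sprr2d, + strand), chr3:92385435-92385684 (Sprr2h, + strand), chr3:93019062-93019311 (Lce1m, - strand) and chr3:93197023-93197272 (Flg2, + strand). Capitals mark matches on either strand to the AP-1 motif TGANTCA and to the octamer ATTTGCAT, which do not overlap each other here.
Sprr2d: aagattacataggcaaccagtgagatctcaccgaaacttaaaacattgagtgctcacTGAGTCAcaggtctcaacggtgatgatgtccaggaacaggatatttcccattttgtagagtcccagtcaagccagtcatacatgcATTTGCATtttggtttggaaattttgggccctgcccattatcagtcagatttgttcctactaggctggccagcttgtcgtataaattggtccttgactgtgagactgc
Sprr2h: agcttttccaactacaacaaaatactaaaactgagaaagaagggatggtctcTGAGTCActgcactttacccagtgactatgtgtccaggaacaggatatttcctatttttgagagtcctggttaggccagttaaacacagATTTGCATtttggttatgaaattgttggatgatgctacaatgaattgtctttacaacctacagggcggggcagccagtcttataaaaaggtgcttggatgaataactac
Lce1m: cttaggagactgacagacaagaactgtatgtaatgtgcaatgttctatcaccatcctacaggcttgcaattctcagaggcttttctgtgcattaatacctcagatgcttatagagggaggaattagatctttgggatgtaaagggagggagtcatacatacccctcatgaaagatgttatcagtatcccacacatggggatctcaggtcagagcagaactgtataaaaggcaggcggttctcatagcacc
Flg2: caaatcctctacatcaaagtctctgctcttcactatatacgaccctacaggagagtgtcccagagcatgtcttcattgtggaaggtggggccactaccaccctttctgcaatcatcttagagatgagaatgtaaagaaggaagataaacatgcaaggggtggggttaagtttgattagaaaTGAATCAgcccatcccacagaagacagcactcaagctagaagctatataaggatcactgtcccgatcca

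Among these windows, Sprr2d held TGAGTCA 193 to 187 bases and the octamer 108 to 101 bases before the start. Sprr2h held them at nearly the same places, 198 to 192 and 109 to 102 bases before the start. Of the 5 Sprr2 genes called lower, 3 held each motif before the start, namely Sprr2b, Sprr2d and Sprr2h. Sprr2a1 and Sprr2a2, also called lower, held neither there, so the pair of motifs was not shared by all called Sprr2 genes. Flg2 held 1 AP-1 match, TGAATCA, 69 to 63 bases before the start, and the letters of neither motif occur in the Lce1m window. Of all 32851 promoter windows of RefSeq, 6.75% held the AP-1 motif and 1.6% the octamer in the 250 bases before the start. The windows also take in 50 bases after the start, which were not searched. These matches describe letters and do not show binding.

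Sprr2d stood at 23.4 and 196 CPM in females against 1.36 and 0.797 CPM in castrated males (log2 difference -5.46 ± 1.04, adjusted p = 0.0423). Sprr2h, chosen after its values were seen, stood at 6.65 and 20.5 CPM against 0.455 and 1.71. Sprr2b had 328 reads in females and 2 in castrated males, a ratio of 163.9 (95% interval 45.01 to 1359.0, counting error only). In each of these genes female replicate 2 was at least 3 times as high as replicate 1, and both females were above both castrated males. Sprr2 genes resemble each other, and Sprr2a1 and Sprr2a2 overlap and have identical windows over 300 of 300 bases, so how their reads were divided is uncertain. Rptn, an S100-fused protein of the cornified envelope, had 120 reads in females and 3 in castrated males (ratio 39.98, 95% interval 13.35 to 196.6). Lce1m went the other way, from 1.94 and 1.15 CPM in females to 18.8 and 18.2 in castrated males, with intact males at 7.88 and 10.6 (log2 difference 3.24 ± 0.28, adjusted p = 0.00101). Flg2, a relative of filaggrin, rose from 4.09 and 2.18 to 18.5 and 20.3 CPM, above the intact males at 9.59 and 7.40 (2.50 ± 0.30, adjusted p = 0.00676), and its adjusted p was 0.128 and 0.103 without castrated male replicate 1 and 2. S100a9, Sprr2b and Rptn reached the read minimum in females only and could not be tested without either female library. Of the other 7 called genes of the complex, 7 were called without female replicate 1 and 3 without female replicate 2, and 3 and 5 of all 10 without castrated male replicate 1 and 2.

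**Figure D3:**
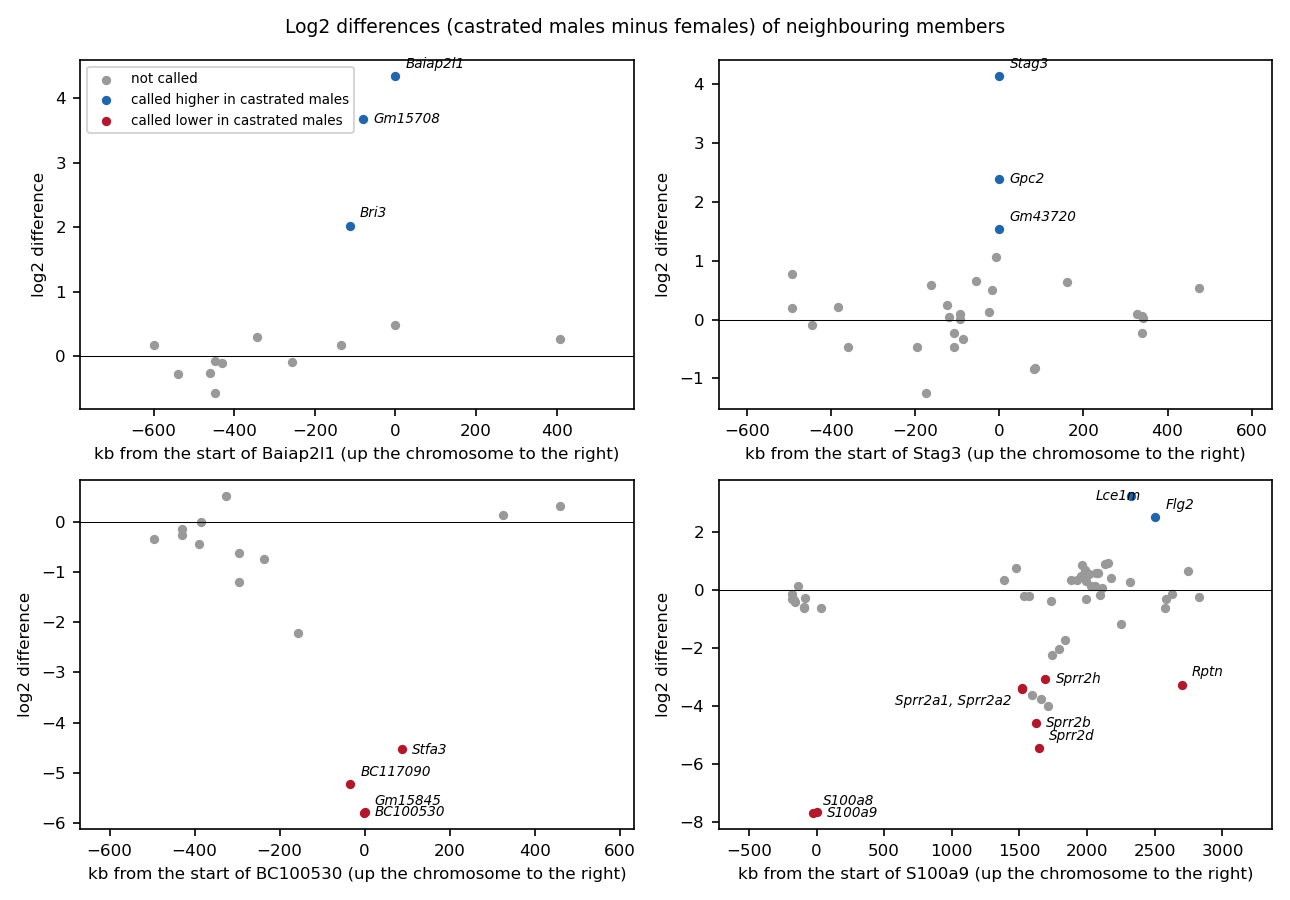
Log2 difference (castrated males minus females) of the genes compared against their distance in kb from the start of Baiap2l1, Stag3, BC100530 and S100a9. Called genes sit among neighbours that were not called: 3 of 14 genes within 500 kb of Baiap2l1, 3 of 30 of Stag3, 4 of 16 of BC100530, and 10 of 55 in the differentiation complex around S100a9, where Lce1m and Flg2 are higher and the Sprr2 genes lower. Over all genes, 1.71% were called.

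Stefin A genes on chromosome 16, whose products inhibit cysteine proteases, were lower in castrated males. BC100530 stood at 178 and 480 CPM in intact females and at 3.07 and 7.40 in castrated males (log2 difference -5.79 ± 0.47, adjusted p = 0.000784). BC117090 stood at 41.9 and 128 against 0.910 and 2.28 CPM, and Stfa3 at 58.5 and 185 against 2.62 and 6.03. Each of the 3 had female replicate 2 highest and no overlap of the groups, which held for 28.4% of all genes with castrated males lower. They were 3 of the 4 measured genes of this cluster, each called also without female replicate 2, while 1 of the 3 was called without castrated male replicate 1. Members of the cluster resemble each other, and Gm15845 overlaps BC100530 on the other strand, so the division of reads among them is uncertain.

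Enzymes, a gasdermin and chemokines made up most of the remaining large deficits. Car2, a carbonic anhydrase that hydrates carbon dioxide, stood at 31.0 and 54.6 CPM in females and 0.569 and 1.37 in castrated males (log2 difference -4.88 ± 0.38, adjusted p = 0.000646). Klk13, a kallikrein-related peptidase, stood at 19.6 and 54.1 against 1.71 and 3.53 CPM, and Gsdmc, a pore-forming gasdermin, at 10.4 and 44.0 against 0.682 and 2.28. Of the chemokines and cytokine receptors, Cxcl1, which draws neutrophils, stood at 12.3 and 26.4 against 1.14 and 0.911 CPM, and Ccl20, which draws cells with the receptor CCR6, at 17.0 and 19.6 against 1.25 and 1.37 (adjusted p = 0.00347 and 0.00227). Il4ra, a receptor chain for interleukins 4 and 13, fell from 51.2 and 98.5 to 17.2 and 16.9 CPM. Cxcl1, Ccl20, Il4ra and Il1f6 were the 4 called genes among 28 cytokines, chemokines and alarmins (14.3%, against 1.71% of all genes). Of the 4, Il1f6 reached the read minimum in females only. The median of the 28 was -0.316 (-0.137 without female replicate 2). Of the 15 lower genes named by size, 13 could be tested without either female library. Of these, 13 were called without replicate 1 and 8 without replicate 2, and without castrated male replicate 1 and 2, 6 and 9 of the 15 were called.

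Genes of antigen presentation on MHC class II were lower in castrated males. Of 14 measured genes 6 were called, all of them lower (42.9%, against 1.71% of all genes), and the median was -1.43. Cd74, the invariant chain, stood at 603 and 1354 CPM in the female libraries and at 219 and 256 in castrated males (log2 difference -1.93 ± 0.31, adjusted p = 0.0241). H2-Ab1 stood at 273 and 585 against 90.6 and 105 CPM (adjusted p = 0.0173), and Ciita, the transcriptional activator of the class, at 8.90 and 17.3 against 1.93 and 1.82 (adjusted p = 0.0162). The groups did not overlap in these genes, which held for 28.4% of all genes with castrated males lower. Female replicate 2 was about 2 times as high as replicate 1. Langerhans cells carry the same genes. All 16 listed markers of Langerhans and dendritic cells summed to 1154 and 2445 CPM in females and 454.7 and 532.6 in castrated males. Of the 12 listed besides the 4 class II genes, 8 had reads enough to be tested, and these 8 summed to 84.5 and 102.0 against 70.5 and 82.2. Pan-leukocyte markers summed to 20.24 and 22.69 against 22.06 and 20.62. T cell markers summed to 37.3 and 107.2 against 90.85 and 170.6, and of the 9 compared 4 had positive and 5 negative differences. Among these 9, Trbc2 alone was called, lower in castrated males (9.41 and 18.5 against 2.96 and 4.44 CPM, limma adjusted p = 0.0483). The part of such cells was not tested. Without female replicate 2, 2 of the 6 were called, and all 6 calls were lost without either castrated male library.

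Genes of cell division mostly had negative differences. All 40 genes of G2 and mitosis had negative differences, with a median of -0.71. In 37 the groups did not overlap, which held for 28.4% of all genes with castrated males lower. Of the 40, 33 had an unadjusted p below 0.05, against 21.8% of all genes, and 2.5% were called, against 1.71%. Aurka, a spindle kinase, was the only one called (36.9 and 43.8 CPM against 17.7 and 19.8, adjusted p = 0.0327), and lost its call without female replicate 2 and without either castrated male library. Mki67, the proliferation marker, stood at 102 and 119 CPM in females, 77.7 and 101 in castrated males and 73.1 and 49.8 in intact males (adjusted p = 0.401). The summed level of the 40 genes was 2715 and 3709 CPM in females, 1665 and 2236 in castrated males and 1452 and 1207 in intact males, so castrated males lay between the others. Of 38 S phase genes (median -0.295, -0.463 without female replicate 1 and -0.12 without female replicate 2) 0 were called by limma or with voom weights, and 9 had an unadjusted p below 0.05, which 3198 of all 14646 genes had (21.8%).

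Genes of energy and protein metabolism mostly had negative differences. All 39 nuclear genes of oxidative phosphorylation had negative differences (median -0.473), against 7155 of all 14646 genes. Cox8a and Uqcrq were called, at -0.73 and -0.82 (5.13% of the list, against 1.71% of all genes). An unadjusted p below 0.05 was found for 33 of the 39, against 21.8% of all genes. Of 24 glycolysis and hypoxia genes (median -0.786, range -2.03 to 0.841), Pfkfb3, which raises glycolytic flux, was called (4.17% of the list). In this list 21 had an unadjusted p below 0.05. Of 31 proteasome subunits (median -0.326) and 46 cytosolic ribosomal proteins (median -0.28) 0 were called by limma or with voom weights, and 14 and 22 had an unadjusted p below 0.05. Exon length differed alongside. The median exon length was 2906 bases in the 168 lower genes and 3784 in all genes, and across genes the deviation of a library correlated with length at Spearman rho -0.143 in female replicate 2 and 0.1 in castrated male replicate 1. Its part in these lists was not tested. Without female replicate 2 the medians were -0.31 for oxidative phosphorylation, -0.454 for glycolysis and hypoxia, -0.153 for the proteasome and -0.17 for ribosomal proteins, and without female replicate 1 the proteasome median was -0.531. Cox8a, Uqcrq and Pfkfb3 lost their calls without female replicate 2 and without either castrated male library.

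**Figure D4:**
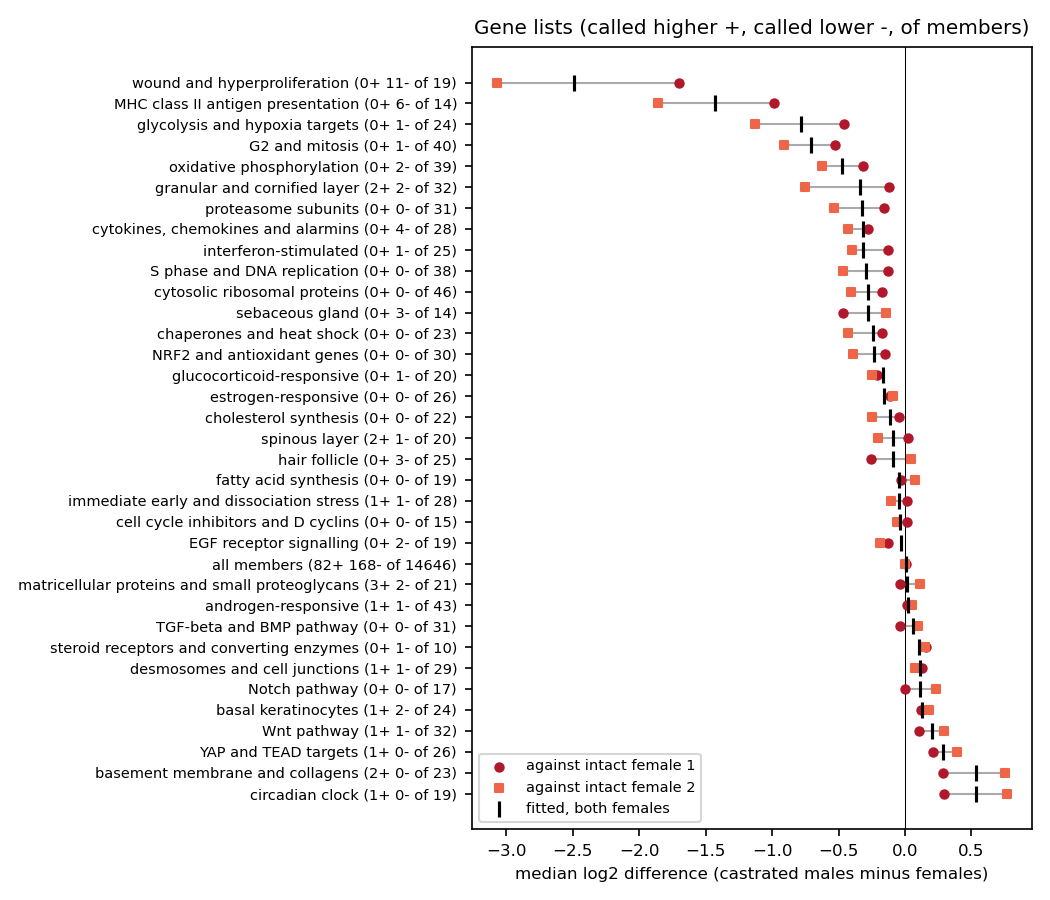
Median log2 difference (castrated males minus females) of each gene list with at least 10 genes compared, lists of cell type markers left out, fitted (bar) and against each female library (points), with the numbers called higher and lower. The wound list (-2.49) and the MHC class II list (-1.43) lie farthest below the median of all 14646 genes (0.0115) among the lists drawn, the clock (0.537) and basement membrane (0.532) lists farthest above, and the medians against female replicate 2 are farther from 0 than those against replicate 1 in each of these 4 lists.

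Matrix genes moved in both directions. Among 23 measured genes of the basement membrane and collagens 19 had positive differences, against 7491 of all 14646 genes. The median of the 23 was 0.532 (0.289 without female replicate 2), and 2 were called (8.7%, against 1.71% of all genes). These were Fras1 (31.8 and 17.6 CPM in females, 76.5 and 78.2 in castrated males, adjusted p = 0.0483) and Frem2 (40.9 and 27.2 against 90.3 and 92.9, adjusted p = 0.0238), whose products act together in anchoring epidermis to dermis. Col17a1, a collagen of the hemidesmosome, stood at 4723 and 3589 against 6267 and 6087 CPM and did not pass (adjusted p = 0.131). Sparc, a matricellular collagen-binding protein, rose from 37.3 and 40.0 to 99.6 and 162 CPM (1.71 ± 0.31, adjusted p = 0.0385). Postn, periostin, went the other way, from 1283 and 1873 to 589 and 585 CPM (-1.40 ± 0.21, adjusted p = 0.0179). Fras1, Frem2, Sparc and Postn lost their calls without female replicate 2 and without either castrated male library, and Sparc also without female replicate 1 (adjusted p = 0.0548).

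The clock, YAP and TEAD, EGF receptor and Wnt lists had 5.26%, 3.85%, 10.5% and 6.25% of their genes called, against 1.71% of all genes. Of 19 circadian clock genes 18 had positive differences, the median was 0.537 (0.302 without female replicate 2), and Ciart, a repressor of the clock, was the only one called (60.9 and 36.4 CPM against 97.5 and 116, adjusted p = 0.0415). Ptpn14, a phosphatase that restrains YAP, was the only one of 26 YAP and TEAD targets called (log2 difference 1.11 ± 0.18). Klf4, a factor of epidermal differentiation, stood at 115 and 81.9 CPM in females and 176 and 174 in castrated males (adjusted p = 0.0456). Tgfa and Nrg1, ligands of the EGF receptor family, fell by 1.91 and 2.47 on the log2 scale and were the 2 called among 19 genes of EGF receptor signalling. Of 32 Wnt pathway genes, Wnt10b was higher and Sostdc1, a secreted inhibitor, lower (305 and 361 against 146 and 205 CPM). The calls of Ciart and Ptpn14 were lost without female replicate 2, as were those of Klf4, Tgfa, Nrg1, Wnt10b and Sostdc1, and each was lost without either castrated male library.

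Akr1c18 was the only gene called of 10 steroid receptors and converting enzymes (10.0%, against 1.71% of all genes). Of the 10, 4 had an unadjusted p below 0.05 (21.8% of all genes). Akr1c18, which encodes an enzyme that inactivates progesterone, stood at 83.7 and 114 CPM in females, 6.26 and 4.90 in castrated males and 28.9 and 18.4 in intact males. The 3 groups did not overlap, and castrated males were the lowest. The log2 difference from females was -4.03 ± 0.25 (adjusted p = 0.000174), and it was called in each refit without a female or castrated male library (adjusted p 0.00166 to 0.0119). Srd5a1, which makes dihydrotestosterone, stood at 23.1 and 24.1 CPM against 32.0 and 40.2 (adjusted p = 0.11), Nr3c1, the glucocorticoid receptor, at 93.2 and 73.5 against 139 and 129 (adjusted p = 0.0521), and Esr1, an estrogen receptor, at 15 and 13.8 against 7.85 and 6.03 (adjusted p = 0.453), with intact males, which share the estimate of spread, at 3.94 and 34.1.

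Hormone target genes were called at 4.65% (androgen-responsive), 0% (estrogen-responsive) and 5.0% (glucocorticoid-responsive), against 1.71% of all genes. Of 43 androgen-responsive genes 2 were called, and 7 had an unadjusted p below 0.05, against 21.8% of all genes. Positive differences were seen in 24 of the 43, and the median was 0.0238 (0.00815 to 0.0546 over the refits without a female or castrated male library). Sord, sorbitol dehydrogenase, was higher (76.0 and 60.5 against 108 and 124 CPM, adjusted p = 0.0428), with intact males at 113 and 119, and Steap4, a metalloreductase, lower (174 and 207 against 93.3 and 85.8, adjusted p = 0.00947), with intact males at 110 and 124. Both calls were lost without female replicate 2 (adjusted p = 0.295 and 0.0861) and without either castrated male library. Of 26 estrogen-responsive genes (median -0.161, and -0.119 to -0.0927 over the same refits) 0 were called by limma or with voom weights, and 11 had an unadjusted p below 0.05, against 21.8% of all genes. Of 20 glucocorticoid-responsive genes (median -0.163) Lcn2 alone was called, and 9 had an unadjusted p below 0.05. Lcn2 reached the read minimum, among the 4 libraries compared, in females only, so that it had to differ. Fkbp5, a target of glucocorticoids and androgens, stood at 18.2 and 13.3 CPM in females and 19.1 and 13.8 in castrated males (adjusted p = 0.923). Among 14 sebaceous gland genes Fabp5, Mgst1 and Krt79 were called lower (21.4% called, against 1.71% of all genes). Krt79 was at 134 and 134 CPM in females, 67.4 and 90.2 in castrated males and 173 and 154 in intact males (limma adjusted p = 0.0479). These 3 calls were lost without female replicate 2 and without either castrated male library.

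**Figure D5:**
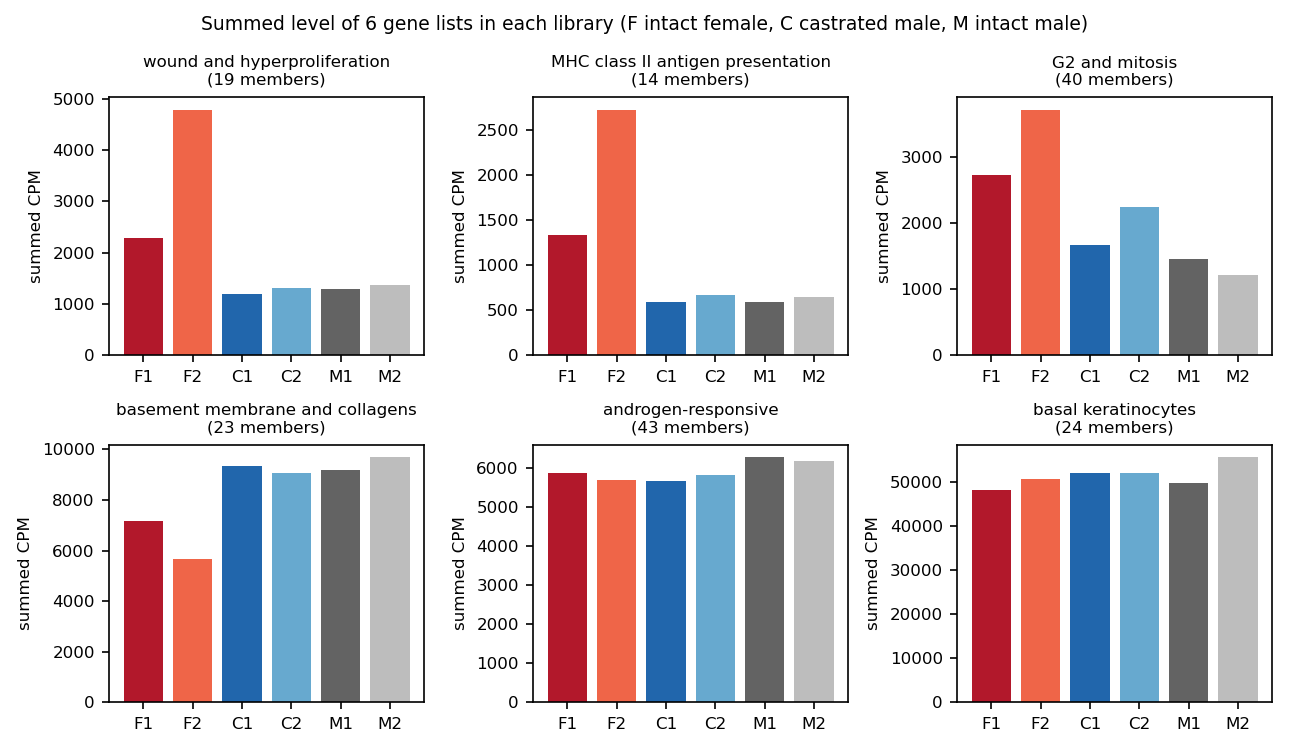
Summed CPM of 6 gene lists in each library, with F for intact females, C for castrated males and M for intact males, and replicates 1 and 2. The wound and MHC class II lists are highest in female replicate 2 (4787 and 2724 CPM), the G2 and mitosis list falls from females through castrated males to intact males, and the androgen-responsive list spans 5668 to 6282 CPM over the 6 libraries.

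Against intact males, whose 2 libraries are shared with other contrasts of the fit, castrated males differed in 4 of the 14646 genes (0.0273%, limma, adjusted p below 0.05): Rps3a3, Rps3a2, Rpsa and Ptgs2. Ptgs2, the inducible cyclooxygenase, stood at 3.09 and 3.17 CPM in intact males and at 20.8 and 26.3 in castrated males (adjusted p = 0.00431), and the female libraries had 14.4 and 13.7 (adjusted p = 0.114 against castrated males). Rpsa, which encodes a protein of the small ribosomal subunit, stood at 438 and 413 CPM in intact males, at 168 and 167 in castrated males (adjusted p = 0.0105) and at 187 and 220 in the female libraries (adjusted p = 0.233). Rps3a3 is a processed pseudogene of the ribosomal protein gene Rps3a1, and it was low in castrated males alone. Its level was 121 and 206 CPM in the female libraries, 179 and 165 in intact males and 2.5 and 3.30 in castrated males (adjusted p = 8.11e-06 against females and 4.01e-05 against intact males).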

How the data were processed

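The deposited table holds, for each library, a score per gene: the authors' read counts scaled to a common total and rounded, as the values show. Per the submitters' processing notes, FastQC, STAR 2.7.5a, Picard and HTSeq 0.11.1 were used with GRCm38 (mm10). The annotation, the strand setting and the scaling: not given in the sources used here. Scores are whole multiples of 1 step per library within the rounding error of 0.5, and dividing by it returned whole reads. CPM were computed from these with TMM factors (0.9271 to 1.032). Genes with at least 10 reads in 2 libraries (15608 over all chromosomes) entered limma 3.58.1 in R 4.3.3 on log2(CPM + 0.5), with all 6 libraries, 1 mean per group, an intensity trend and 3 residual degrees of freedom. P-values are two-sided and Benjamini-Hochberg adjusted over the 15608 genes. A difference is castrated males minus females, with its standard error; it understates the change of low genes. A count of 0 allows 3 reads (0.3067 to 0.3846 CPM), for counting error only. Replicates are pools of mice, and p-values measure the spread between 2 pools per group.

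The genes compared and the 53 gene lists were chosen with earlier results of these data known. Genes are named where they are among the 15 largest called changes per direction (groups that do not overlap, mean over 4 libraries not under 5 CPM, an established symbol), among up to 6 called and 4 other genes of a list, or among 15 fixed genes. The procedure was tested on simulated data. Replicates differed by more than sampling noise (chi-square per degree of freedom 4.79 to 13.6). Gene positions are those of GENCODE M21 on GRCm38, to which 49412 of 49671 genes matched, and promoter windows are RefSeq's. A comparison of motif shares between gene sets was left out, since under 80% of the called genes had a window. The result for 1 further gene is not reported here.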

Additional observations from a re-analysis of the deposited data

How the results depend on the processing

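The number of genes called, 250 (82 higher, 168 lower), stayed within 1.5 times under median-of-ratio factors (257), library totals (239), upper quartile factors (265), 30 reads as the minimum (214), pseudocounts of 0.1 and 1 CPM (196 and 251), adjustment over the autosomal genes alone (255) and, added after seeing the data, removal of a trend over exon length (254). It moved without a filter on low reads (26 genes, 6 higher and 20 lower), without the intensity trend (46, 14 and 32), in a fit of the 4 libraries alone (536, 198 and 338) and with precision weights by voom, added after seeing the data (79, 25 and 54). The cause was not tested. The replicate number as a block gave 157 calls, 43 of them higher and 114 lower; the replicate numbers did not pair the samples (correlation of same-numbered deviations 0.19 between females and castrated males, -0.15 and -0.0126 for the pairs with intact males). Leaving out 1 library at a time gave 16 to 1275 calls in all, 4 to 500 higher and 10 to 775 lower. No alternative reversed a named gene. For the called ones this was largely fixed in advance, since their groups did not overlap in the same libraries. The planned count-model tests were left out, since the deposited values are scaled and rounded and whole reads were only inferred from them. Depth limits genes near 10 reads.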

Other observations

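Transcription factors and enzymes of the epidermis that belong to no list above differed too; these genes were chosen after their values were seen. Ehf, an ETS factor of epithelia, stood at 268 and 480 CPM in females and 61.8 and 84.9 in castrated males (log2 difference -2.30, limma adjusted p = 0.00462), and Elf3, a related factor, at 6.44 and 8.72 against 2.05 and 2.28. Adh7, a retinol-oxidising alcohol dehydrogenase, stood at 358 and 494 against 125 and 145 CPM (adjusted p = 0.0025). Crispld2, a secreted protein, stood at 388 and 403 against 156 and 184 CPM (adjusted p = 0.00262), with little difference between the female libraries. Cyp2b10, a cytochrome P450, went the other way, from 60.8 and 44.2 CPM in females to 133 and 144 in castrated males (log2 difference 1.41, adjusted p = 0.0053). Ctsl, a lysosomal protease, rose from 171 and 164 to 273 and 269 CPM (adjusted p = 0.0241). Gm7897, a predicted gene on chromosome 1, had the largest excess of all, 22.1 and 29.0 CPM in castrated males against 0.307 and 0.385 in females, with intact males at 15.9 and 1.53, and of the 4 libraries compared reached the read minimum in the castrated ones only. Without castrated male replicate 1 none of these 7 genes was called (adjusted p 0.0594 to 0.339).

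Copies of Rps3a1 other than Rps3a3, chosen after their values were seen, were also low in castrated males. Rps3a2 stood at 18.7 and 29.4 CPM in the female libraries, 23.2 and 24.0 in intact males and 3.98 and 3.98 in castrated males, and Gm3508 had 20 and 16 reads, 20 and 18, and 0 and 0. Rps3a1 itself stood at 577 and 592 CPM in the female libraries, 567 and 517 in intact males and 699 and 779 in castrated males. The sum of Rps3a1, Rps3a2, Rps3a3 and Gm3508 was 718.4 and 829.1 CPM, 772.0 and 707.3, and 705.9 and 786.0 in that order, so the groups overlapped in the sum. How reads were divided between a gene and its near copies is uncertain.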
